A study of Homo sapiens with 6 samples.

Results

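The 35 genes described here encode aminoacyl-tRNA synthetases. They were chosen by name: 19 that serve the cytosol (symbols ending in 1, with FARSA and FARSB) and 16 that serve the mitochondrion (symbols ending in 2). The cells were DLD1, a human cell line long established from a colorectal adenocarcinoma, and the measurements came from 6 Affymetrix Human Genome U133 Plus 2.0 arrays. Of these, 3 were from cells exposed for 12 h to vehicle (DMSO) and 3 from cells exposed for 12 h to 10 µM SAH-BCL9B, a peptide studied under a title that speaks of disrupting the BCL9/beta-catenin complex. The labels describe triplicate cultures of this 1 line, so p-values measure the spread between cultures of DLD1, and no control peptide was analysed here. Among the probe sets that name a gene alone, the 1 with the highest 6-array mean stood for that gene. That gave values for 32 of the 35 genes, 17 cytosolic and 15 mitochondrial, out of 19775 genes tested. MARS1, QARS1 and TARS2 have only probe sets that also name a microRNA gene and were not given a value.

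An aminoacyl-tRNA synthetase joins an amino acid to its own tRNAs, and so sets which amino acid a codon is read as. The cytosolic enzymes supply the ribosomes of the cytoplasm. The mitochondrial enzymes are encoded in the nucleus too, are imported, and supply the ribosomes that make the few proteins encoded by mitochondrial DNA. GARS1 and KARS1 are exceptions, since each encodes both the cytosolic and the mitochondrial enzyme, and EPRS1 joins 2 enzymes, for glutamate and for proline, in 1 protein. When an amino acid is scarce, uncharged tRNA activates the kinase GCN2, which phosphorylates the initiation factor eIF2 and favours translation of the transcription factor ATF4. ATF4 is known to act with C/EBP proteins at a composite site, the C/EBP-ATF response element or CARE, in promoters of amino acid transport and synthesis genes and of many cytosolic synthetases.

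The core of that element, TGATGNAA, was searched on both strands of RefSeq promoters (GRCh38.p14), 250 bases before to 50 bases after each listed start site. It was present for 7 of the 16 cytosolic synthetases with a listed promoter (43.8%) and for 1 of 14 mitochondrial ones, and for 4.46% of the 27305 genes of the table (3.62% of its 35116 promoters). The 8 windows are shown because most of the genes that fell carry them. Each runs 5′ to 3′ in the direction of the motif, with the 8 bases of the motif in capitals, and its place is given on the strand printed.
AARS1, chr16:70289675-70289704, plus strand: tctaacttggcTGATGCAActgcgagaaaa
CARS1, chr11:3057407-3057436, plus strand: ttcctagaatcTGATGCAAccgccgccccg
GARS1, chr7:30594834-30594863, minus strand: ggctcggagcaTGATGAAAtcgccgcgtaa
IARS1, chr9:92293692-92293721, plus strand: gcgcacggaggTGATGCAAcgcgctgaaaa
MARS1, chr12:57488053-57488082, minus strand: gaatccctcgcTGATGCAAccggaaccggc
NARS1, chr18:57621804-57621833, minus strand: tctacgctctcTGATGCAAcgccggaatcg
TARS1, chr5:33440956-33440985, minus strand: gctggaccagcTGATGCAAtcgaaaggcgc
YARS2, chr12:32756076-32756105, minus strand: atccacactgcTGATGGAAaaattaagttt

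In 6 of the 7 cytosolic windows the free base of the motif makes TGATGCAA, and GARS1 has TGATGAAA. The motif lies close to the start site in 6 of the 7: its first base is at -33 in GARS1, -13 in IARS1, -4 in MARS1, -2 in CARS1, 3 in TARS1 and 15 in NARS1, counted from the start site as base 1 along the gene. In AARS1 it lies farther off, at -187. CARS1, GARS1 and TARS1 each have 2 listed start sites, and the motif was found around 1 of them. The 250 bases before the start of AARS1 and of IARS1, each with a single listed start, show these 2 spacings. They are written along the gene, where the motif reads as its complement TTGCATCA.
AARS1, chr16:70289507-70289756, minus strand: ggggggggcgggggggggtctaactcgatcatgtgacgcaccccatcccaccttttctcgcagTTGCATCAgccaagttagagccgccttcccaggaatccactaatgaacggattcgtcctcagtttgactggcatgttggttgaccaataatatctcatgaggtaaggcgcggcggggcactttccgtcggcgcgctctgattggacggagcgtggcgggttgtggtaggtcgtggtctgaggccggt
IARS1, chr9:92293698-92293947, minus strand: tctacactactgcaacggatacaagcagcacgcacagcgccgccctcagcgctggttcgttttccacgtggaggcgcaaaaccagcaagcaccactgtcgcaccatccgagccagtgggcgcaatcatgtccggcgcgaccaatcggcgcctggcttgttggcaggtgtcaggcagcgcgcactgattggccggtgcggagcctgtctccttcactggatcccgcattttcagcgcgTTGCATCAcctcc

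After SAH-BCL9B part of the cytosolic synthetase genes fell, and all but WARS2 of the measured mitochondrial ones were not called. Of the 17 measured cytosolic genes, 9 fell, 0 rose and 8 missed the threshold, a Benjamini-Hochberg adjusted p under 0.05 from limma over all genes. Their median log2 change was -0.40. Of the 15 measured mitochondrial genes, 1 fell, 0 rose and 14 missed it, with a median of -0.04. Over all genes the same test called 6.93%, of which 3.43% were lower and 3.49% higher, and the median was 0.02. In such bulk samples fewer cells of a kind and less RNA per cell cannot be told apart. Among the 6269 genes at or above the level of the dimmest measured cytosolic synthetase, 5.31% were called lower. The share of mitochondrial synthetases called, 6.67%, is close to that background, and to the 5.51% of the 10087 genes at or above the level of their own dimmest member. The mitochondrial genes reached lower levels, with 6-array means from 7.58 to 12.80, against 9.55 to 13.96 for the cytosolic genes. How far this gap in level contributes to the difference between the 2 lists was not tested. The number of cytosolic genes that fell was 3 without vehicle 1, 4 without vehicle 2 and 5 without vehicle 3, SAH-BCL9B 1 or SAH-BCL9B 3, and 3 cytosolic genes, AARS1, GARS1 and TARS1, passed in all 16 alternative settings. Fewer genes of any kind passed without those arrays, 316 without vehicle 1 against 1370 with all arrays.

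**Figure D1:**
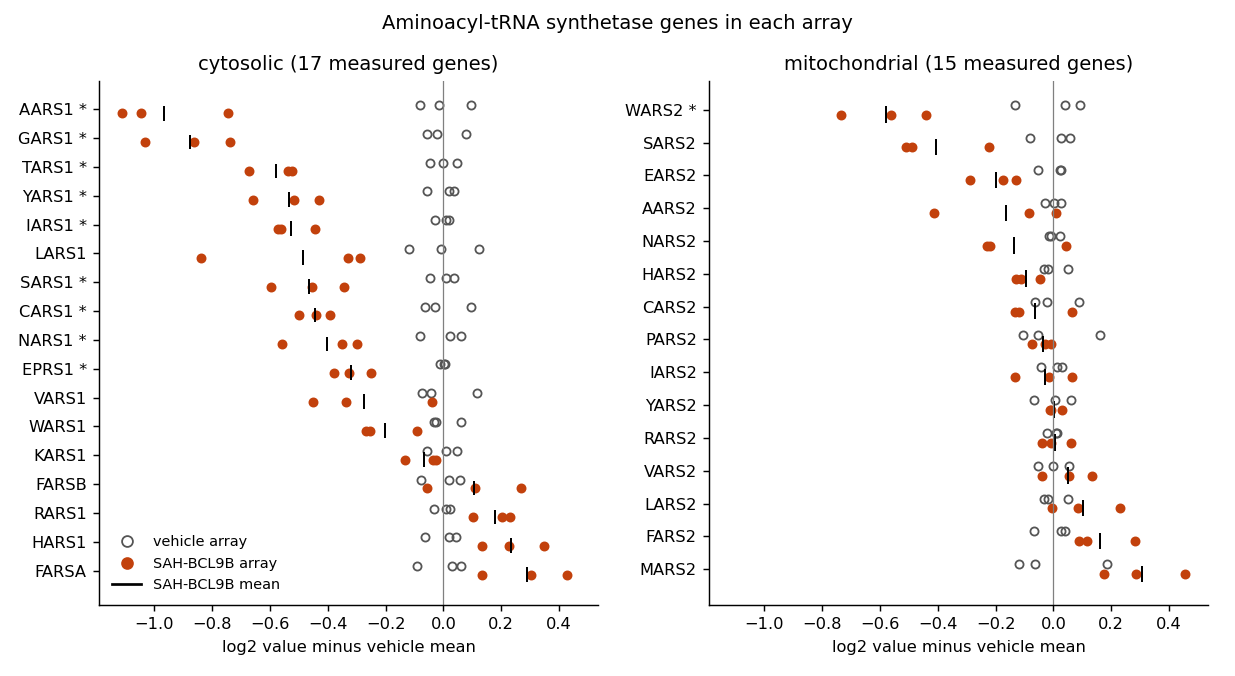
Each row is a measured synthetase gene, and the x axis is the log2 value of an array minus the mean of the 3 vehicle arrays. Open circles are vehicle arrays, filled circles SAH-BCL9B arrays and black bars the SAH-BCL9B mean; a star marks an adjusted p under 0.05. The filled circles lie left of every open circle in 11 of the 17 cytosolic genes and in 4 of the 15 mitochondrial genes, against 12% of all genes.

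The largest fall was in AARS1, which encodes the alanine enzyme. Its log2 values were 11.43, 11.36 and 11.54 in vehicle 1 to 3 and 10.33, 10.70 and 10.40 in SAH-BCL9B 1 to 3. The highest treated array was well below the lowest vehicle array, and the change of -0.97 ± 0.11 (limma SE, n = 3 per group) was a 1.95-fold fall (adjusted p = 0.00387). By size of change it stood at place 52 from the lowest among the 19775 genes. GARS1, the glycine enzyme of both compartments, read 14.10, 13.96 and 14.00 in vehicle and 13.28, 12.99 and 13.16 in SAH-BCL9B. Those groups were as clearly apart, with a change of -0.88 ± 0.10, a 1.84-fold fall (adjusted p = 0.00338). KARS1, the lysine enzyme and the other gene that serves both compartments, read 14.04, 14.00 and 13.93 in vehicle and 13.95, 13.85 and 13.96 in SAH-BCL9B. The KARS1 groups overlapped, and the 95% confidence interval of its change, -0.24 to 0.11, excludes a fall of the size seen in GARS1.

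The other 7 cytosolic genes that fell did so by less, from -0.58 to -0.32. TARS1, the threonine enzyme, read 13.11, 13.02 and 13.06 in vehicle and 12.54, 12.52 and 12.39 in SAH-BCL9B, a 1.49-fold fall (change -0.58 ± 0.08, SE, limma adjusted p = 0.00721). YARS1, for tyrosine, read 12.96, 12.97 and 12.88 against 12.42, 12.51 and 12.28, a change of -0.54 ± 0.09 (adjusted p = 0.0122). IARS1, for isoleucine, read 13.63, 13.59 and 13.64 against 13.18, 13.06 and 13.05, a change of -0.53 ± 0.08 (adjusted p = 0.00839). In all 3 genes every treated array lay below every vehicle array, and the spread within a group was small beside the gap. SARS1 (serine), CARS1 (cysteine), NARS1 (asparagine) and EPRS1 changed by -0.46 ± 0.09, -0.44 ± 0.08, -0.40 ± 0.09 and -0.32 ± 0.07 (adjusted p = 0.0201, 0.0175, 0.0432 and 0.0423). Their groups did not overlap either. IARS1 missed the threshold without vehicle 1 (adjusted p = 0.0526), and YARS1 without vehicle 1 or vehicle 2 (up to 0.0669). CARS1 and SARS1 missed it without any 1 array other than SAH-BCL9B 2 (up to 0.0754 and 0.0972). NARS1 and EPRS1 missed it without any 1 of the 6 arrays (up to 0.174 and 0.168) and with the ACTB 3′/5′ control difference as a covariate (0.061 and 0.0667), and EPRS1 also with the mean of its probe sets (0.412).

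The 8 cytosolic genes that did not pass pointed in both directions. LARS1, for leucine, read 11.54, 11.67 and 11.43 in vehicle and 10.71, 11.26 and 11.22 in SAH-BCL9B. Its treated arrays were all below the vehicle arrays but differed widely among themselves, and the change of -0.49 ± 0.15 (SE) had a limma adjusted p of 0.105. VARS1 (valine) and WARS1 (tryptophan) had values of -0.28 ± 0.12 and -0.20 ± 0.08 (adjusted p = 0.229 and 0.201), and FARSB, a subunit of the phenylalanine enzyme, 0.11 ± 0.10 (0.629). On the other side, FARSA, the partner subunit of FARSB, had a value of 0.29 ± 0.10, HARS1 (histidine) 0.24 ± 0.08 and RARS1 (arginine) 0.18 ± 0.07 (adjusted p = 0.128, 0.152 and 0.22). In each of these 3 the treated arrays lay above all vehicle arrays, as they did in 16.3% of all genes. HARS1 passed, upward, with a variance trend and robust fit (adjusted p = 0.0479). LARS1 passed, downward, in that fit and with array weights (0.0438 and 0.0377), and VARS1, downward, without SAH-BCL9B 2 (0.0485). In 11 of the 17 cytosolic genes the treated arrays lay below all vehicle arrays, and in 3 above them. Among all genes the groups did not overlap in 28.3%, with 12% lower, and 18.1% were lower without overlap among those at or above the level of the dimmest of the 17.

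Sorted by what is known of the enzymes, the falls were spread over the family. The cytosolic enzymes for 7 of the listed genes (EPRS1, IARS1, KARS1, LARS1, MARS1, QARS1 and RARS1) sit in a multi-synthetase complex. Of its 5 measured members 2 fell (median -0.32), and of the 12 cytosolic genes outside it 7 fell (median -0.42). Synthetases also fall into classes I and II by the fold of their catalytic domain. In the cytosol 3 of 7 measured class I genes and 5 of 9 class II genes fell, with medians of -0.44 and -0.40, leaving out EPRS1, which holds a domain of each. AIMP1, a scaffold protein of the complex, had a value of 0.02 ± 0.07 (SE), with a 95% confidence interval of -0.14 to 0.18, and -0.29 with the mean of all its probe sets (limma adjusted p = 0.92 and 0.0954).

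Among mitochondrial genes only WARS2, the tryptophan enzyme, fell. Its log2 values were 9.60, 9.55 and 9.38 in vehicle and 9.07, 8.95 and 8.77 in SAH-BCL9B. The groups did not overlap, and the change of -0.58 ± 0.10 (SE) was a 1.49-fold fall (limma adjusted p = 0.0172). It missed the threshold without vehicle 1, vehicle 2 or SAH-BCL9B 3, and with the mean of its 3 probe sets, which gave -0.32 (adjusted p up to 0.0859). SARS2, for serine, read 7.70, 7.84 and 7.81 in vehicle and 7.30, 7.56 and 7.28 in SAH-BCL9B. Those groups did not overlap, and its value of -0.41 ± 0.10 lay just beyond the threshold (adjusted p = 0.0509); it passed in 7 of the 16 alternatives, with the lowest adjusted p at 0.0125 and the highest at 0.162.

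The other 13 measured mitochondrial genes had values from -0.20 for EARS2 (glutamate) to 0.31 for MARS2 (methionine), with limma adjusted p from 0.157 to 0.99. Next to EARS2 came AARS2 (alanine) at -0.16, NARS2 (asparagine) at -0.14, HARS2 (histidine) at -0.10, CARS2 (cysteine) at -0.06, PARS2 (proline) at -0.04 and IARS2 (isoleucine) at -0.03. AARS2 read 8.61, 8.57 and 8.63 in vehicle and 8.61, 8.19 and 8.52 in SAH-BCL9B, so its value rests mostly on SAH-BCL9B 2. YARS2 (tyrosine) was at 0.0033 and RARS2 (arginine) at 0.0048, VARS2 (valine) at 0.05, LARS2 (leucine) at 0.10 and FARS2 (phenylalanine) at 0.16. For YARS2 the 95% confidence interval was -0.17 to 0.17 and for IARS2 -0.22 to 0.16. These intervals exclude falls as large as those of YARS1 and IARS1, though not smaller ones.

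Genes for the same amino acid could be set side by side in 15 pairs, with EPRS1 paired to both EARS2 and PARS2 and FARS2 to both FARSA and FARSB. The cytosolic gene had the lower change in 11 pairs and the higher in 4, and the median difference of the changes was -0.27. With 3 arrays against 3, the exact permutation test of a single pair cannot go below p = 0.1 (two-sided), so no pair could pass. That smallest p was reached in 12 pairs, with an adjusted p of 0.125 over the 15, and the 2 groups of arrays did not overlap in those 12. For single genes the groups did not overlap in 28.3%, and the share for differences of other gene pairs was not computed. The widest gap was for alanine, -0.80: AARS1 fell while AARS2 had a value of -0.16, and the within-array difference had an SD of 0.06 in vehicle and 0.42 in SAH-BCL9B. Leucine followed at -0.59, tyrosine at -0.54 and isoleucine at -0.50.

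The difference ran the other way, without overlap, for WARS1 and WARS2 (0.38), HARS1 and HARS2 (0.33) and RARS1 and RARS2 (0.17). When the probe sets of each gene were averaged, these were 0.19, 0.33 and 0.091. HARS1 and HARS2 are neighbours transcribed away from each other. HARS1 read 11.40, 11.42 and 11.32 in vehicle and 11.61, 11.73 and 11.51 in SAH-BCL9B. HARS2 read 10.35, 10.28 and 10.27 in vehicle and 10.26, 10.19 and 10.17 in SAH-BCL9B. So the treated arrays lay above the vehicle arrays for the cytosolic gene and below them for the mitochondrial gene, although neither passed the test over all genes (limma adjusted p = 0.152 and 0.54). For serine the changes of SARS1 and SARS2 were nearly equal, with a difference of -0.06 for the chosen probe sets and -0.42 when the probe sets of each gene were averaged.

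**Figure D2:**
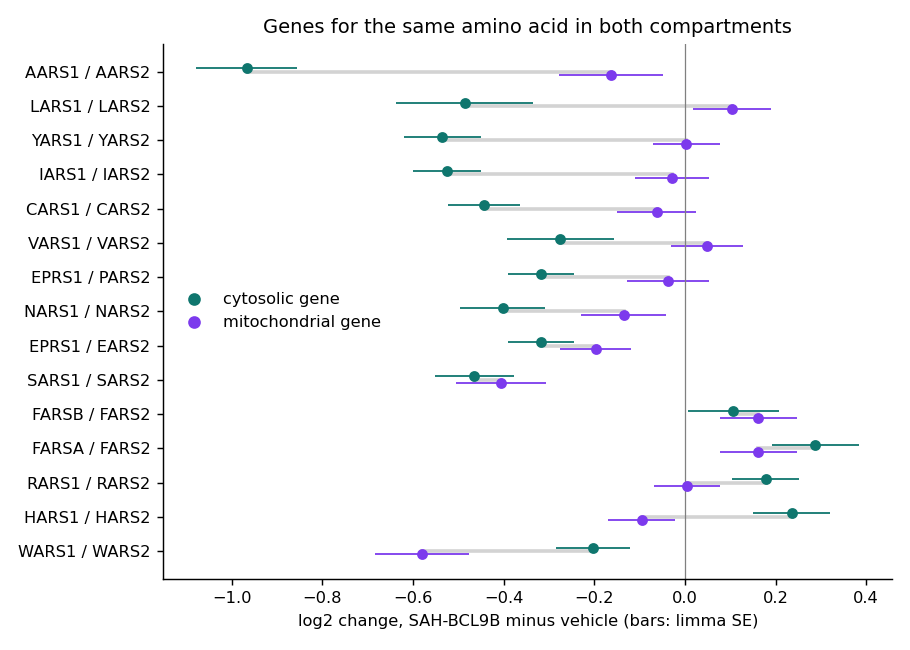
Each row pairs the cytosolic and the mitochondrial gene for an amino acid, ordered by the difference of their changes; the x axis is the log2 change, SAH-BCL9B minus vehicle, and bars are limma's standard errors. The cytosolic point lies left of the mitochondrial one in 11 of 15 rows, with a difference of -0.80 for AARS1 and AARS2, and right of it in 4.

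The probe sets of a gene did not always give the same size of change. The array holds 34 probe sets that name only a cytosolic gene and 33 that name only a mitochondrial gene, counting all 32 genes. Tested each by itself with adjustment over all 41091 such probe sets, 12 of the 34 cytosolic ones passed, all lower, and 26 of the 34 had a negative change. In the same fit 1 of the 33 mitochondrial ones passed, and 14 had a negative change. Some had mean log2 values below the array medians of 6.58 to 6.62, where a sign says little about the gene. Among the mitochondrial ones these were of CARS2 (3.75 and 5.00), RARS2 (3.84 and 4.38), WARS2 (4.19), FARS2 (4.91) and EARS2 (6.53). Among the cytosolic ones they were of FARSB (4.09) and CARS1 (5.76). Of all 41091 probe sets 3.78% were called, 2.07% lower. The second probe set of SARS1 fell by 1.20 on the log2 scale (adjusted p = 0.0033), against -0.46 for the chosen one, and the mean of both gave -0.83.

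Likewise 2 further probe sets of CARS1 changed by -0.85 and -0.88 (limma adjusted p = 0.0068 and 0.0169), against -0.44 for the chosen one. The fourth had a value of 0.01, but its mean log2 value of 5.76 was below the array medians. Both probe sets of YARS1 fell, by 0.54 and 0.64. The 2 of TARS1 had values of -0.58 and -0.28, and only the first passed (adjusted p = 0.0164 and 0.194). The 4 probe sets of LARS1 had values from -0.49 to -0.15, and 1 of them passed (-0.43, adjusted p = 0.0453). The 3 of EPRS1 had values of -0.32, -0.53 and -0.52, and none passed in that fit (adjusted p = 0.0754, 0.529 and 0.624). AARS1, GARS1, IARS1 and NARS1 have a single such probe set each. In that fit it passed for AARS1, GARS1 and IARS1 but not for NARS1 (adjusted p = 0.0735).

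**Figure D3:**
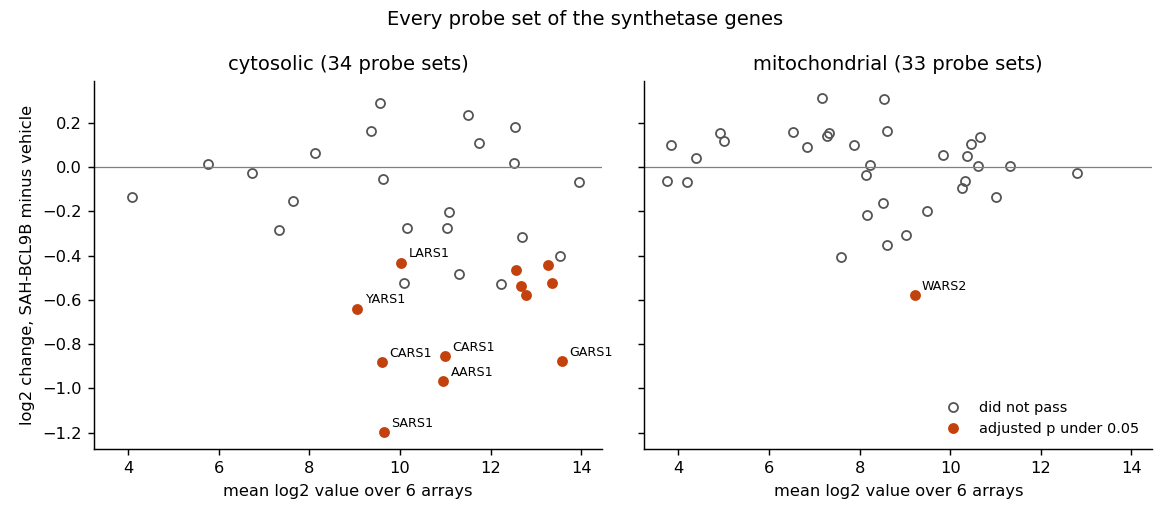
Every probe set that names only a listed synthetase is a point, by its mean log2 value over the 6 arrays (x axis) and its log2 change (y axis); filled points had an adjusted p under 0.05 over all 41091 probe sets. Filled points are 12 of 34 in the cytosolic panel, down to -1.20 for SARS1, and 1 of 33 in the mitochondrial panel.

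The promoter windows shown above can be read beside these changes. All 6 measured cytosolic genes with the motif fell, with changes of -0.97 (AARS1), -0.88 (GARS1), -0.58 (TARS1), -0.53 (IARS1), -0.44 (CARS1) and -0.40 (NARS1). Of the 8 measured cytosolic genes whose listed promoters did not hold these letters, 2 fell, SARS1 and EPRS1. No promoter was listed for LARS1, VARS1, YARS1, AARS2 and VARS2. The mitochondrial gene with a match, YARS2, had a value of 0.0033. Over all 15384 measured genes with a listed promoter, 556 (3.61%) held the motif: 48 of the 550 called lower (8.73%), 17 of the 583 called higher (2.92%) and 491 of the 14251 not called (3.45%). The 48 include the 6 cytosolic synthetases, and the motif was chosen with earlier results known, so that share is not independent of them. Another short motif, the E-box CACGTG, which reads alike on both strands and is bound by MYC among others, was found for 1 of 16 cytosolic genes (IARS1) and 3 of 14 mitochondrial ones (CARS2, EARS2 and MARS2), and for 8.77% of all genes of the table and 10.9% of the measured ones (7.26% of all promoters). In IARS1, the gene that holds both, they do not overlap. A match describes these letters and was not tested as a site.

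**Figure D4:**
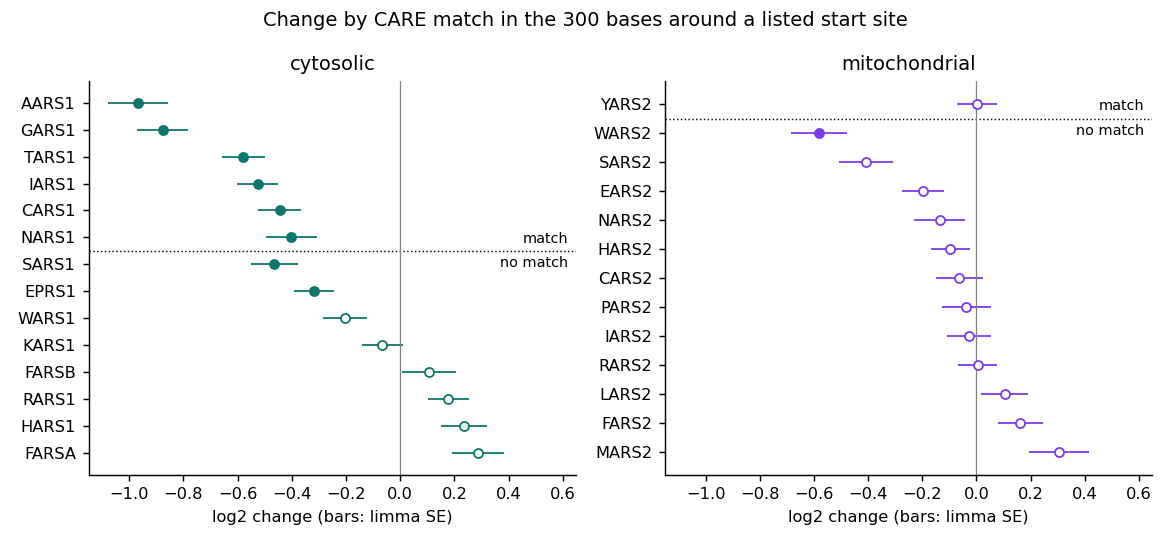
Rows are the measured synthetases with a listed promoter, split by a dotted line into those with and without the CARE core in the 300 bases around a listed start site; the x axis is the log2 change, bars are limma's standard errors and filled points had an adjusted p under 0.05. In the cytosolic panel the 6 genes with a match lie between -0.97 and -0.40 and the 8 without between -0.46 and 0.29.

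Genes of neighbouring steps were taken from lists chosen for their function. XPOT, the nuclear exporter of tRNA, read 13.14, 13.06 and 12.94 in vehicle and 12.18, 12.12 and 12.34 in SAH-BCL9B. Its groups were far apart, and the fall of 1.78-fold (change -0.83 ± 0.09, SE, limma adjusted p = 0.00347) passed in all 16 alternatives. TARS3, a paralog of TARS1, read 8.92, 9.02 and 8.50 in vehicle and 9.35, 9.38 and 9.37 in SAH-BCL9B. It rose by 0.55 ± 0.13 where TARS1 fell (adjusted p = 0.047), but its vehicle arrays were spread and the call was lost without any 1 of the 6 arrays (adjusted p up to 0.135). With the mean of its probe sets its value was 0.29. The other 9 measured genes of that list of 12 synthetase relatives and tRNA partners, did not pass, and the median of the 11 was 0.01.

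Genes known to respond to ATF4 in amino acid stress were lower. Of 26 measured, 20 fell, 0 rose and 6 missed the threshold (median -0.79), led by NUPR1 (-1.76 ± 0.15, SE), PCK2 (-1.74 ± 0.09), VLDLR (-1.44 ± 0.11) and PHGDH (-1.12 ± 0.08), the first enzyme of serine synthesis (limma adjusted p from 0.000158 to 0.00137). This list was put together with the falls of several of its members known, so its count is no independent evidence of direction. ATF4 itself read 14.43, 14.40 and 14.36 in vehicle and 14.04, 13.96 and 13.86 in SAH-BCL9B, a change of -0.44 ± 0.08 (adjusted p = 0.0177). ATF4 missed the threshold without vehicle 1, vehicle 2 or SAH-BCL9B 3 (adjusted p up to 0.0938). A list of eIF2 subunits, kinases and regulators, which also counts ATF4, had 12 measured genes. In it ATF4 and EIF2S2, a subunit of eIF2 (-0.40 ± 0.07, adjusted p = 0.0197), fell and the other 10 did not pass, with a median of 0.04 for the 12. EIF2S2 missed the threshold without any 1 array other than SAH-BCL9B 2 (up to 0.0973).

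Genes of the machinery that uses charged tRNA had medians near 0. Of 4 measured cytosolic elongation factors none passed, with values from -0.04 to 0.06. EEF1A1, one of them, read 15.68 to 15.72, near the array maxima of 15.69 to 15.75, so a change in it could be missed. Of 8 measured mitochondrial translation factors none passed (median -0.06). Of 72 measured mitochondrial ribosomal protein genes 4 rose and none fell, with a median of -0.01: MRPL18 (0.41 ± 0.07, SE), MRPL50 (0.41 ± 0.08), MRPS17 (0.40 ± 0.08) and MRPS6 (0.39 ± 0.08; limma adjusted p from 0.0167 to 0.0289). None of these 4 kept its call in every alternative (highest adjusted p from 0.0831 for MRPL18 to 0.134 for MRPL50). Over all genes 3.49% were called higher and 3.43% lower. Without overlap, 18 of the 72 lay higher and 15 lower, against 16.3% and 12% of all genes. MRPL54, at -0.37, lay just beyond the threshold (limma adjusted p = 0.0513).

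**Figure D5:**
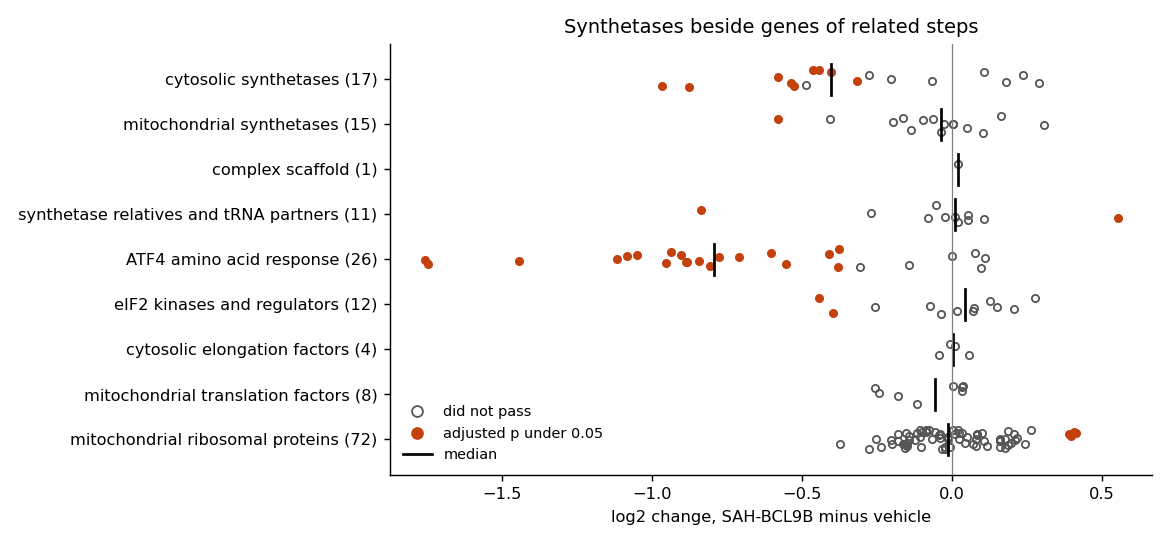
Each point is a gene and each row a list, with the number measured in brackets; the x axis is the log2 change, filled points had an adjusted p under 0.05 and the black bar is the median. The medians are -0.40 for cytosolic synthetases, -0.04 for mitochondrial ones and -0.79 for ATF4 response genes, and lie between -0.06 and 0.04 in the other rows.

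Averaged over the 17 measured cytosolic genes, the deviation from the vehicle mean was -0.02 to 0.02 in the vehicle arrays and -0.31, -0.26 and -0.37 in SAH-BCL9B 1, 2 and 3. For the 15 mitochondrial genes it was -0.03 to 0.02 and then -0.0042, -0.09 and -0.12. Arrays differed in quality: the ACTB 3′ minus 5′ control difference was 0.74 in SAH-BCL9B 2 and 1.20 to 1.38 in the other 5. With that difference as a covariate 7 cytosolic genes fell and the median was -0.39, and without vehicle 3 and SAH-BCL9B 2 it was 7 and -0.41. Vehicle means of all 32 genes lay above the array medians of 6.58 to 6.62. The colorectal epithelial marker genes averaged 12.3 in vehicle and 12.4 to 12.5 in SAH-BCL9B. Of these 8 markers KRT8, a keratin, rose by 0.50 ± 0.08 (SE, limma adjusted p = 0.0113, and 0.0527 without vehicle 1), and the other 7 did not pass. Without overlap, KRT8, KRT18 (0.28) and KRT19 (0.31) lay higher and CDX2 (-0.27) lower, 3 and 1 of the 8, against 16.3% and 12% of all genes. The part of these shifts in the synthetase changes was not tested. Averages of fibroblast, immune and endothelial markers were 5.45 to 6.34 over both groups.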

How the data were processed

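The deposited file holds log2 values of 54675 probe sets on 6 arrays. The authors made them with RMA (affy), per the submitters' processing notes, with no version given there. RMA normalizes between arrays, which removes a shift common to nearly all genes, and can shrink changes of dim probe sets. Names came from GEO's platform annotation: 41091 probe sets named 1 gene, 1801 several and 11721 none here. Entrez IDs of 41037 matched RefSeq (GRCh38.p14), which was used for names and promoters; 30 of the 35 listed genes matched its promoter table. SAH-BCL9B was set against vehicle by lmFit and eBayes (limma 3.58.1, R 4.3.3), without covariates or a filter on low values, and p-values were adjusted by Benjamini-Hochberg over 19775 genes at a threshold of 0.05. The fit was tested on simulated data. Errors of changes are limma's standard errors. The labels name no batch. Motifs were searched with Python 3.11.15.

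The members, gene lists and motifs were chosen with earlier results of these data known. Every listed synthetase is named. Each context list contributes up to 4 called genes, those with the largest change, and a list of 3 or fewer all its measured ones. Outside that rule, KRT18, KRT19 and CDX2 were named after their values were seen. So were MRPL54, for its adjusted p, and EEF1A1, for its level. Alternatives were a replicate block, a low-value filter, the mean of a gene's probe sets or each probe set, other scaling and variance models, array weights, an ACTB 3′/5′ term and arrays left out. In the setting with each probe set, the call of a single gene is that of its chosen probe set, adjusted over all 41091. For genes outside the 35, the alternatives were added after seeing the data.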

Additional observations from a re-analysis of the deposited data

How the results depend on the processing

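Having only 3 arrays per group limits the precision, and signal over background is unknown. Among the alternative values of single synthetases, 446 kept direction and side of the threshold, 42 lost a call, 11 gained one and 13 turned sign. With each array left out in turn, 3 to 8 cytosolic genes and 316 to 1426 of all genes were called. Cytosolic genes called were 7 to 11 in the other settings without the block. All genes called were 2270 with the filter on low values, 2456 under the robust fit with a variance trend and 2172 under array weights. Mitochondrial genes called were 0 to 2 with each array left out and 0 when all probe sets of a gene were averaged. They were 2 under the low-value filter, median centring, the variance trend, array weights and the ACTB term, and also without both vehicle 3 and SAH-BCL9B 2. The median change ran from -0.44 to -0.35 (cytosolic) and from -0.090 to -0.019 (mitochondrial) with each array left out. Over every probe set it was -0.30 and 0.011, and the mitochondrial median was -0.082 with array weights. In 10 to 11 of the 15 pairs the cytosolic gene had the lower change with each array left out.

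Deviations of same-numbered arrays from their group means had correlations of 0.24, -0.20 and -0.32. With 3 arrays per group such deviations are tied to one another, so they cannot tell whether the numbers pair the arrays. With the replicate number as a block, 296 genes, 3 cytosolic and 1 mitochondrial synthetase passed.

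Signs turned in genes near 0, none of them called. With the mean of all probe sets FARSB was -0.019, CARS2 0.088 and AIMP1 -0.29. With a second quantile normalization RARS2 was -0.0041 and YARS2 -0.0072. With array weights YARS2 was -0.0044, and with the ACTB term VARS2 was -0.0099. With arrays left out, singly or vehicle 3 with SAH-BCL9B 2, PARS2 ran from -0.10 to 0.042, IARS2 from -0.074 to 0.025, RARS2 from -0.024 to 0.027 and YARS2 from -0.031 to 0.034. The cause was not tested.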
